A study of Mus musculus with 6 samples.

Results

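The levels of 10 platelet and megakaryocyte genes (Pf4, Itga2b, Itgb3, Gp1bb, Gp5, Gp9, Vwf, Ppbp, Treml1 and Rab27b) were examined in hematopoietic stem cells (HSCs) of the mouse fetal liver. They were taken by name, with no threshold on a measured value, and all 10 were found among the 38926 gene symbols of the count lists. All 10 also passed the filter on low counts, which kept 13646 genes. RNA was sequenced from HSCs sorted out of E14.5 embryos in 6 samples, and each of 3 litters gave 1 control and 1 knockout sample. The 3 control samples were Vav-Cre; Dpy30F/+ and the 3 knockout samples were Vav-Cre; Dpy30F/-, so that both genotypes carried the Cre transgene and 1 floxed Dpy30 allele. Vav-Cre is active throughout the blood-forming lineages, and the remaining allele was intact in controls and null in knockouts. The comparison is therefore with cells that keep 1 intact allele, not with fully intact cells. The DPY30 protein is shared by the enzyme complexes of the SET1/MLL family, which place methyl groups on histone H3 at active promoters. How many embryos gave each sample is not given in the sources used here.

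Megakaryocytes are the large cells of the blood-forming organs that shed platelets. They arise from HSCs, and some HSCs already carry RNA of the platelet lineage, a state known as lineage priming, for which Vwf and Itga2b are much used markers. The genes fall into 3 groups by role. Itga2b and Itgb3 encode the subunits of the fibrinogen receptor. Gp1bb, Gp5 and Gp9 encode subunits of the GPIb-IX-V complex, which binds von Willebrand factor, the product of Vwf. Pf4, Ppbp, Treml1 and Rab27b belong with Vwf to the storage granules of platelets and their release.

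Each library had 31897737 to 43394700 counts given to genes, and 2 mitochondrial ribosomal RNAs took 45.2% to 61.7% of them. Dpy30 itself stood at 24.6, 24.2 and 31.6 CPM (counts per 1e6, scaled by trimmed mean of M values) in controls 1 to 3 and at 7.93, 5.95 and 13.7 CPM in knockouts 1 to 3. Each number is the litter. The knockouts lay below every control (log2 fold change -1.55, SE 0.46, edgeR adjusted p = 0.672). Of 15 HSC markers, 13 had counts in every library, among them Kit and Hlf. The HSC markers summed to 722 to 760 CPM in controls and to 824, 945 and 309 CPM in knockouts 1 to 3, so knockout 3 stood below the other libraries. Markers of some other cells of the fetal liver were present in all libraries too, with every one of 12 endothelial, 12 macrophage and 11 erythroid markers counted in each. Of 9 hepatocyte markers 3 were counted in every library, and of 11 mast cell and basophil markers 2 were. Endothelial markers summed to 1453 to 2277 CPM in controls and to 2084, 280 and 2002 CPM in knockouts 1 to 3, so knockout 2 stood apart. In these bulk samples, fewer cells of a type and less RNA per cell cannot be told apart.

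The libraries of the 2 genotypes did not overlap for 4 of the 10 genes. Itgb3, Pf4 and Rab27b were higher in every knockout than in any control, by 2.61-fold, 2.77-fold and 5.07-fold in mean CPM. Ppbp was lower in every knockout than in any control, by 2.03-fold. The remaining 6 genes overlapped between the genotypes. Of all 13646 genes tested, 6.39% lay wholly above and 7.74% wholly below the controls in the knockouts. None of the 10 genes passed edgeR's quasi-likelihood test at an adjusted p under 0.05, nor did any other gene (0% of those tested). At an unadjusted p under 0.05, edgeR had 3 of the 10 genes higher and 1 lower in the knockouts, against 4.26% higher and 2.24% lower of all genes (6.51% in either direction). In DESeq2, Itgb3 and Rab27b passed the adjusted threshold, both higher in the knockouts, against 0.762% of all genes higher and 0.249% lower (1.01% in either direction). With litter as a replicate block, a pairing taken from the labels, DESeq2 kept Itgb3 (adjusted p = 0.00556) and not Rab27b (adjusted p = 0.0659), against 1.13% of all genes higher and 0.901% lower (2.03% in either direction). The log2 fold change was above 0 for 7 of the 10 genes, against 50.8% of all genes, or 63.1% when scaled by library size only. Its median was 0.74 over the 10 genes and 0.01 over all genes tested.

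**Figure D1:**
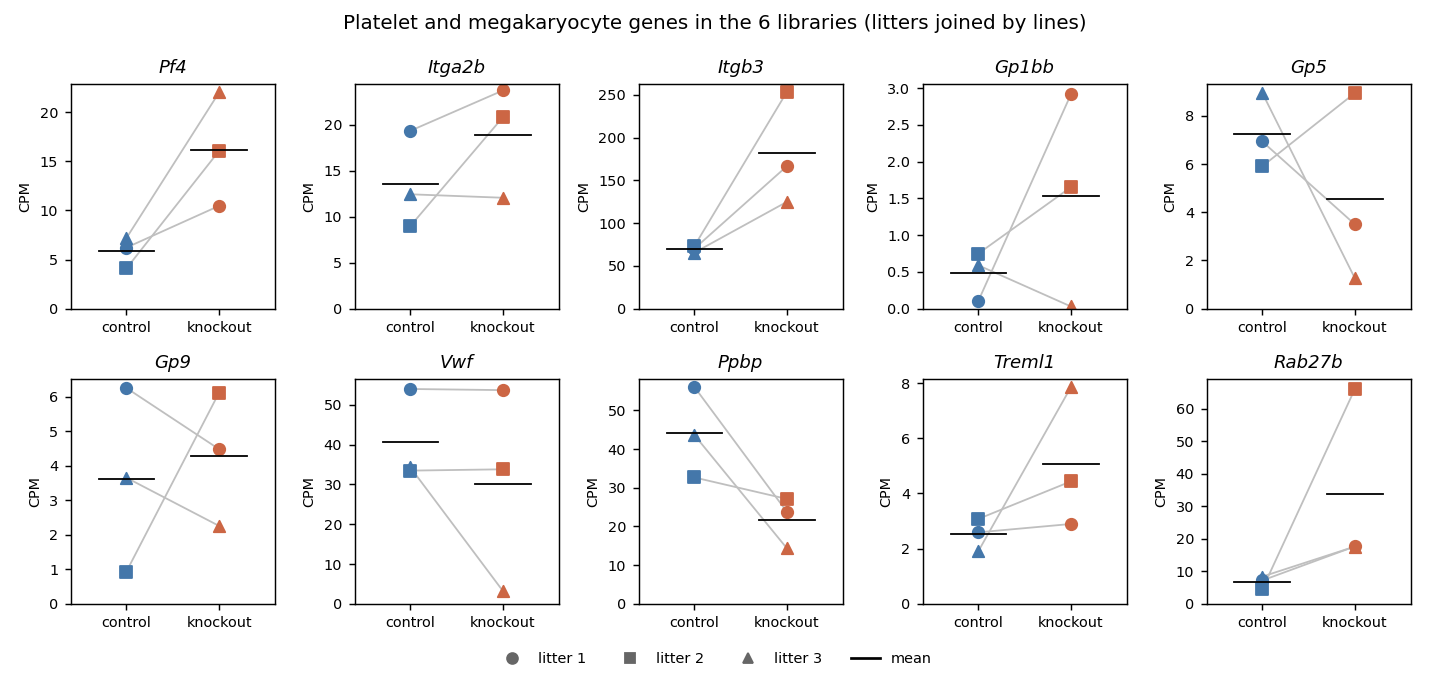
Level of each of the 10 genes in CPM (vertical axes, each starting at 0) in the control and knockout library of each litter, joined by a line, with the group mean as a bar (n = 3 libraries a group). Pf4, Itgb3 and Rab27b lay higher and Ppbp lower in all 3 knockouts, and Vwf was low in knockout 3 alone.

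The fibrinogen receptor is an integrin made of the alpha subunit encoded by Itga2b (CD41) and the beta subunit encoded by Itgb3 (CD61). Itgb3 also pairs with the alpha V subunit, outside the platelet lineage as well. Itgb3 (chromosome 11, 104608000 to 104670476, GRCm38) had 70.1, 73.1 and 65.5 CPM in controls 1 to 3 and 167, 254 and 125 CPM in knockouts 1 to 3. The controls lay close together, with a coefficient of variation of 5.53%, and the lowest knockout was well above the highest control. The means were 69.6 ± 3.85 and 182 ± 65.7 CPM (SD, n = 3 each), a log2 fold change of 1.39 (SE 0.29; edgeR adjusted p = 0.612, DESeq2 adjusted p = 0.00582). Among the 10 genes, Itgb3 had the smallest SE and the smallest p in edgeR. Itga2b (chromosome 11, 102453297 to 102470122) did not separate the genotypes. It had 19.3, 8.99 and 12.4 CPM in controls 1 to 3 and 23.7, 20.8 and 12.1 CPM in knockouts 1 to 3. Knockouts 1 and 2 were above all controls, and knockout 3 lay within their range (log2 fold change 0.47, SE 0.49; edgeR adjusted p = 0.907).

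Since both genes are read in the same library, their ratio does not depend on how libraries are scaled. Per kilobase of exon, Itgb3 was at 3.35, 7.52 and 4.87 times the level of Itga2b in controls 1 to 3 and at 6.49, 11.3 and 9.58 times in knockouts 1 to 3. The ratio was higher in the knockout of each litter, and the groups overlapped between control 2 and knockout 1.

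Among the genes of the GPIb-IX-V complex, the log2 fold change was below 0 for Gp5 and above 0 for Gp9 and Gp1bb. Their SEs were 0.86 to 1.58, too wide to tell whether the subunits shared a shift. Gp5 (chromosome 16, 30307685 to 30310779) encodes the subunit that thrombin cleaves. It had 6.94, 5.91 and 8.96 CPM in controls 1 to 3 and 3.50, 8.96 and 1.26 CPM in knockouts 1 to 3. Knockout 2 was level with the highest control, whereas knockouts 1 and 3 were below all controls (log2 fold change -0.67, SE 0.86; edgeR adjusted p = 0.932). Gp9 (chromosome 6, 87778072 to 87779768) encodes a small subunit that the complex needs to reach the cell surface. Gp9 had 6.25, 0.936 and 3.65 CPM in controls 1 to 3 and 4.48, 6.12 and 2.26 CPM in knockouts 1 to 3. The knockouts fell inside the range of the controls, which was wide (log2 fold change 0.25, SE 0.97; edgeR adjusted p = 0.983). Its sign turned without control 2 (-0.20) and without knockout 2 (-0.10).

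Gp1bb (chromosome 16, 18620317 to 18622403), the beta subunit of GPIb, was the lowest of the 10 genes, and its counts are uncertain. In GENCODE M21, 91.1% of its exon bases also belong to exons of Sept5 on the same strand, and a counting program may set reads on such bases aside as ambiguous. The counts given to Gp1bb were 3, 28 and 26 in the controls and 116, 60 and 1 in the knockouts, by litter. None of the other 9 genes shares exon bases with another gene in that annotation. The knockouts held both the highest library and the lowest (edgeR log2 fold change 1.66, SE 1.58, adjusted p = 0.901).

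The alpha subunit of GPIb, Gp1ba, carries the binding site for von Willebrand factor and was listed among the related platelet receptors. It separated the genotypes, with 18.6, 26.3 and 30.0 CPM in controls 1 to 3 and 67.6, 94.0 and 51.1 CPM in knockouts 1 to 3. Every knockout was above every control, with means of 25.0 ± 5.80 and 70.9 ± 21.6 CPM (SD, n = 3 each; log2 fold change 1.50, SE 0.34; edgeR adjusted p = 0.622, DESeq2 adjusted p = 0.0137). Gp1ba was thus higher in the knockouts, as Itgb3 was, while Gp5 overlapped. Per kilobase of exon, Gp1ba was at 2.17, 3.60 and 2.71 times the level of Gp5 in controls 1 to 3 and at 15.6, 8.49 and 32.9 times in knockouts 1 to 3. This ratio did not overlap between the genotypes. The ratio of Gp1ba to Gp9, another subunit of the complex, did overlap. It was 0.967, 9.11 and 2.66 per kilobase in the controls of litters 1 to 3 and 4.89, 4.98 and 7.34 in their knockouts, lower in the knockout of litter 2.

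Vwf (chromosome 6, 125546774 to 125686679) encodes von Willebrand factor, the large protein that tethers platelets to vessel walls and is made by megakaryocytes and endothelial cells. It had 54.0, 33.5 and 34.3 CPM in controls 1 to 3 and 53.7, 33.8 and 3.17 CPM in knockouts 1 to 3. In litters 1 and 2 the control and the knockout were nearly equal, with log2 differences of -0.01 and 0.01, while in litter 3 the difference was -3.41. The overall log2 fold change of -0.42 (SE 0.80; edgeR adjusted p = 0.962) rested on knockout 3, and became 0.12 without it. Among the 15 HSC markers, Hlf and Mecom, chosen after their values were seen, were low in the same library. Gata2, another of the 15, was not, with 30.1 to 32.0 CPM in controls and 45.3 CPM in knockout 3. Hlf had 157 to 177 CPM in controls and 146, 230 and 27.2 CPM in knockouts 1 to 3. Mecom had 70.2 to 78.7 CPM in controls and 99.6, 147 and 11.6 CPM in knockouts 1 to 3. Endothelial markers were not low in knockout 3 (2002 CPM in sum), and in knockout 2, where they summed to 280 CPM, Vwf was at its level in control 2. The part of endothelial RNA in the values of Vwf was not tested.

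Pf4 and Ppbp encode the chemokines CXCL4 and CXCL7, both stored in the alpha granules of platelets. They are neighbours on the plus strand of chromosome 5, Ppbp at 90768518 to 90770063 and Pf4 at 90772435 to 90773383, so that Pf4 starts 2372 bases after the last base of Ppbp. The 250 bases before the RefSeq start of each are shown because the pair differed in opposite directions between the genotypes. Beside them stand those of Itga2b and Gp5, which did not separate the genotypes. The sequences are from RefSeq (GRCm38.p6), 5′ to 3′ on the strand of the gene, at chr5:90772185-90772434 (plus strand) for Pf4, chr5:90768268-90768517 (plus) for Ppbp, chr11:102469884-102470133 (minus) for Itga2b and chr16:30310782-30311031 (minus) for Gp5. The RefSeq start of Itga2b lies inside the gene as GENCODE M21 draws it, so most of its window is within the coordinates given for the gene above. Capitals mark 2 kinds of words on either strand, AGATAA or TGATAA, which GATA factors can bind, and AGGAAG or CGGAAG, which ETS factors such as FLI1 can bind.
Pf4: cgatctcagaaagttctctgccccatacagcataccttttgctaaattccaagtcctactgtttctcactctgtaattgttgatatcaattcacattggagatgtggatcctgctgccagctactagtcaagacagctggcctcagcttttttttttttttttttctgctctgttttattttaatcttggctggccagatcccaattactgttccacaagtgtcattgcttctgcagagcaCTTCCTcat
Ppbp: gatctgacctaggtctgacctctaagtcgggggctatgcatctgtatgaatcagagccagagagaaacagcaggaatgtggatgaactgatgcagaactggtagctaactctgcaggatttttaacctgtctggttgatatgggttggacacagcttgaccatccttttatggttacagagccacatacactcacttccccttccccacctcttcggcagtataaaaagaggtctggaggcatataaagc
Itga2b: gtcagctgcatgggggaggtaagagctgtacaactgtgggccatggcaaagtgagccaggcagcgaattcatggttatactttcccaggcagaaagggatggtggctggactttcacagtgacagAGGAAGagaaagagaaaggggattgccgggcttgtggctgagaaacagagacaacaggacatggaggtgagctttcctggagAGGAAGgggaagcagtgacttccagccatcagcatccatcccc
Gp5: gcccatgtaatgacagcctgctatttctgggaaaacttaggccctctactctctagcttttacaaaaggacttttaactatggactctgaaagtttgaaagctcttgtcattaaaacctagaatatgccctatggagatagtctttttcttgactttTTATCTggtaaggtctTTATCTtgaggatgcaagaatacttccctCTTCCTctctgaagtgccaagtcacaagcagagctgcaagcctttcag
Sequences for 7 of the 10 genes were matched, which left out Itgb3, Vwf and Rab27b. An ETS word was present in 5 of these 7 windows, those of Pf4, Itga2b, Gp1bb, Gp5 and Gp9, and in 39.2% of 32851 windows of the same length before all listed gene starts. A GATA word was present in 1 of the 7, that of Gp5, and in 16.6% of all windows. Gp5 held 2 GATA words, at -93 to -88 and -77 to -72 from its start, and no GATA word overlapped an ETS word in the 7 windows. The windows of Ppbp and Treml1 held neither kind of word.

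Pf4 had 6.22, 4.09 and 7.19 CPM in controls 1 to 3 and 10.5, 16.1 and 22.0 CPM in knockouts 1 to 3. All knockouts were above all controls, with means of 16.2 ± 5.78 and 5.83 ± 1.58 CPM (SD, n = 3 each; log2 fold change 1.47, SE 0.56; edgeR adjusted p = 0.733, DESeq2 adjusted p = 0.263). Ppbp went the other way, with 56.0, 32.7 and 43.6 CPM in controls 1 to 3 and 23.7, 27.1 and 14.3 CPM in knockouts 1 to 3. All knockouts were below all controls, with means of 21.7 ± 6.63 and 44.1 ± 11.7 CPM (SD, n = 3 each; log2 fold change -1.02, SE 0.38; edgeR adjusted p = 0.729, DESeq2 adjusted p = 0.350). Counts of Pf4 came to 0.111, 0.125 and 0.165 of those of Ppbp in controls 1 to 3 and to 0.441, 0.593 and 1.54 in knockouts 1 to 3. The ratio was 3.98, 4.73 and 9.34 times higher in the knockout than in the control of litters 1 to 3. In knockout 3, which had the highest Pf4 and the lowest Ppbp, Pf4 counts exceeded those of Ppbp. The gene pairs whose ratios are given were chosen after the values were seen, and the ratios were not tested.

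**Figure D2:**
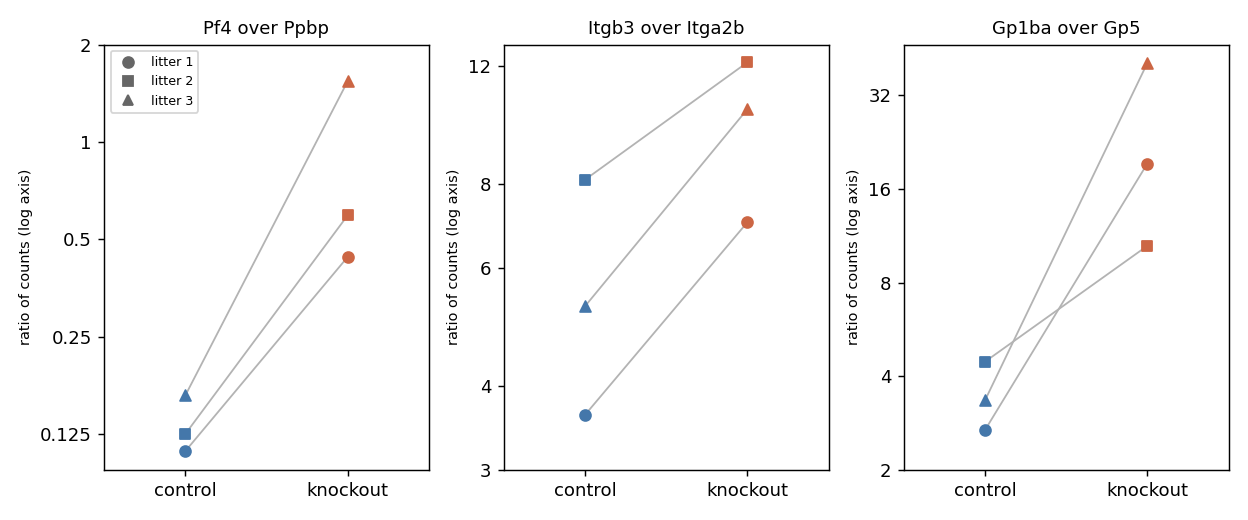
Ratio of the counts of 2 genes within each library (log axes), for Pf4 over Ppbp, Itgb3 over Itga2b and Gp1ba over Gp5, with the control and knockout of a litter joined by a line. All 3 ratios were higher in the knockout of every litter, and those of Pf4 over Ppbp and of Gp1ba over Gp5 did not overlap between the genotypes.

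Rab27b (chromosome 18, 69979131 to 70141605) encodes a small GTPase that brings granules to the cell membrane for release, in platelets and in mast cells among others. It had 7.18, 4.47 and 8.37 CPM in controls 1 to 3 and 17.7, 66.1 and 17.6 CPM in knockouts 1 to 3. All knockouts were above all controls, and knockout 2 was far above the other two (means 6.67 ± 2.00 and 33.8 ± 28.0 CPM, SD, n = 3 each). This gave a log2 fold change of 2.34 (SE 0.64; edgeR adjusted p = 0.642, DESeq2 adjusted p = 0.0285), which came to 1.40 in edgeR without knockout 2, the lowest value among the alternatives tried. Its close relative Rab27a, chosen after its values were seen, had 16.3, 9.82 and 18.3 CPM in controls 1 to 3 and 13.8, 24.7 and 23.9 CPM in knockouts 1 to 3, which overlapped. Sytl4 encodes a partner that Rab27 proteins bind on granules. Its counts were 18, 100 and 137 in the controls and 7, 2 and 0 in the knockouts, by litter (log2 fold change -4.72, SE 1.67; edgeR adjusted p = 0.729). Sytl4 was thus lower, and Rab27b higher, in every knockout than in any control. Within a genotype they had no clear common order. Control 3 was the highest control for both, but the lowest was control 2 for Rab27b and control 1 for Sytl4. Among the knockouts, Sytl4 had at most 7 counts, and Rab27b was nearly equal in knockouts 1 and 3. Mast cell and basophil markers summed to 5.01 to 17.1 CPM in controls and to 25.9, 45.7 and 42.4 CPM in knockouts 1 to 3. Of their 11 genes, 4 had 0 counts in all libraries, Fcer1a, Tpsb2, Cma1 and Mcpt4. Another 4 passed the filter and were tested, 3 with a log2 fold change above 0 (50.8% of all genes) and 1 below. Il1rl1 and Cpa3 were higher in every knockout than in any control (6.39% of all genes). Hdc and Mcpt8, the others tested, had unadjusted edgeR p of 0.761 and 0.824. Il1rl1 had 4.94 to 8.64 CPM in controls and 13.1 to 35.9 CPM in knockouts (edgeR adjusted p = 0.663, DESeq2 adjusted p = 0.0586). Cpa3 had 0.0691 to 3.72 CPM in controls and 4.08 to 17.9 CPM in knockouts (edgeR adjusted p = 0.775). With litter as a replicate block, Cpa3 passed in DESeq2 (adjusted p = 0.00345), against 1.13% of all genes higher. The part of such cells in the values of Rab27b was not tested.

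Treml1 (chromosome 17, 48359916 to 48367176) encodes a receptor of alpha granule membranes that moves to the surface of activated platelets. It had 2.59, 3.08 and 1.91 CPM in controls 1 to 3 and 2.89, 4.44 and 7.85 CPM in knockouts 1 to 3. The knockout was higher in each litter, but knockout 1 lay below control 2 (log2 fold change 1.00, SE 0.86; edgeR adjusted p = 0.884).

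**Figure D3:**
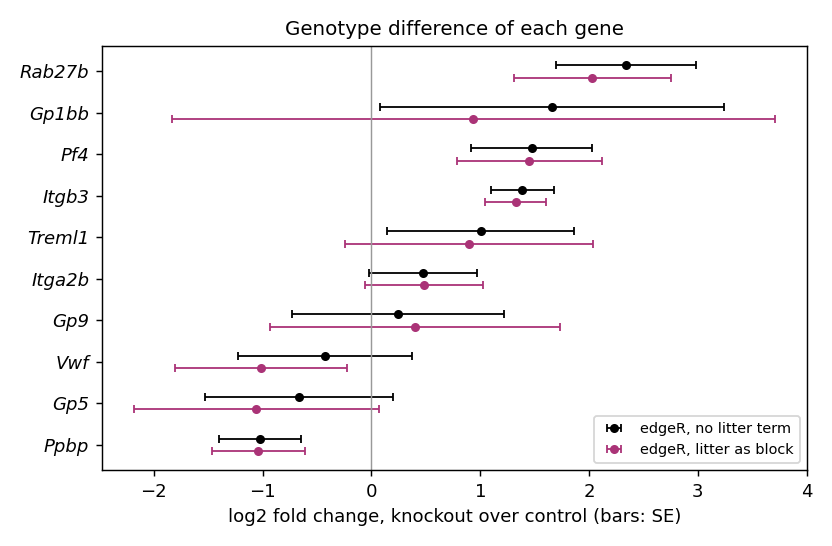
Log2 fold change of each of the 10 genes, knockout over control, with its SE as a bar, from edgeR without a litter term (black) and with litter as a replicate block (purple). Itgb3 had the narrowest bar at 1.39, Rab27b the highest value at 2.34 and Ppbp the lowest at -1.02, and none passed the adjusted threshold.

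The genes did not go up and down together across the 6 libraries. Knockout 3 was the lowest library for 4 of the 10 (Gp1bb, Gp5, Vwf and Ppbp) and the highest for 2 (Pf4 and Treml1). Knockout 2 was the highest for Itgb3 and Rab27b, and control 2 the lowest for Pf4, Itga2b, Gp9 and Rab27b. The knockout was higher than the control in all 3 litters for 4 genes (Pf4, Itgb3, Treml1 and Rab27b), in 2 litters for 2 genes, in 1 litter for 3 genes and in no litter for Ppbp. The same tally over all genes was not made, so these counts have no share to be set against. The coefficient of variation of the CPM was larger among the knockouts for 8 genes, with Itga2b and Gp9 as the exceptions. For Vwf it was 28.7% in controls and 84.2% in knockouts, and for Gp5 it was 21.3% and 86.7%. The share of all genes with a larger value in the knockouts was not computed. Over all 13646 genes tested, the knockouts were also less alike than the controls. Pearson r of log2 CPM was 0.856 to 0.880 between controls and 0.720 to 0.773 between knockouts.

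Per kilobase of exon, the order of the 10 levels differed between the genotypes. Ppbp was first in controls at 40.7 ± 10.8 CPM per kilobase, followed by Itgb3 at 11.8 ± 0.652 and Pf4 at 8.09 ± 2.20 (SD, n = 3 each). The ranges of these 3 genes did not overlap in controls. From Pf4 down through Gp9, Gp5, Vwf, Itga2b and Treml1, each neighbour overlapped with the next, from 8.09 to 1.80 CPM per kilobase in mean. Rab27b at 0.625 ± 0.187 and Gp1bb at 0.230 ± 0.161 CPM per kilobase came last. In knockouts Itgb3, Pf4 and Ppbp were the first 3 at 30.8 ± 11.1, 22.4 ± 8.01 and 20.0 ± 6.12 CPM per kilobase (SD, n = 3 each), and neighbours in this order overlapped. All 3 were above the other 7 genes in the knockouts, of which Gp9 was the highest at 4.86 ± 2.20 CPM per kilobase. Rab27b stood ninth in controls and seventh in knockouts, at 3.17 ± 2.62 CPM per kilobase.

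The 5 genes whose pattern was most like the mean of the 10 genes, each standardised over the 6 samples, were Spn (Pearson r = 0.999), Cmpk2 (0.986), Tsc22d2 (0.986), Prune (0.984) and Arpc2 (0.982) among 8506 genes with a mean of at least 5 CPM. Spearman's rho was 1 for the first 4 and 0.943 for Arpc2. Spn encodes CD43, a surface protein of leukocytes and platelets, and Arpc2 a subunit of the actin-branching ARP2/3 complex. The mean itself was highest in knockout 2 and lowest in control 2. These values are a description over 6 libraries. Single genes of the 10 correlated with the mean at r from 0.87 for Itga2b to -0.06 for Treml1.

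The other genes of the megakaryocyte and platelet program were taken as 5 lists, in which 85 of 86 genes could be analysed and all 85 were tested. None passed edgeR's adjusted threshold, and 15 were higher and 1 was lower at an unadjusted p under 0.05, against 4.26% and 2.24% of all genes. A log2 fold change above 0 was found for 66 of the 85 (50.8% of all genes), with a median of 0.44 against 0.01 over all genes. When scaled by library size only, the share of all genes above 0 was 63.1%, and the 85 were not counted again under that scaling. In DESeq2, 4 passed, all higher in the knockouts (0.762% of all genes) and all in the list of surface receptors and their signalling. With litter as a replicate block in DESeq2, 5 passed, all higher (1.13% of all genes): these 4 and Rab32. A total of 18 genes lay above all controls in every knockout and 1, Sytl4, below all, against 6.39% and 7.74% of all genes.

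Among 12 transcription factors of the lineage, 0 passed in edgeR or DESeq2, 0 had an unadjusted edgeR p under 0.05, 8 had a log2 fold change above 0 (50.8% of all genes), and the median was 0.15. Gata2, which acts in HSCs and early progenitors, was the 1 factor of the 12 whose groups did not overlap. Of all genes, 6.39% lay above and 7.74% below all controls in the knockouts. Gata2 was above them. It had 30.1 to 32.0 CPM in controls and 35.9, 74.7 and 45.3 CPM in knockouts 1 to 3 (log2 fold change 0.74, SE 0.34; edgeR adjusted p = 0.775). Gata1 and Gfi1b, which act in both the megakaryocyte and the erythroid lineage, had log2 fold changes of -0.52 (SE 0.48) and -0.66 (SE 0.49), with edgeR adjusted p of 0.896 and 0.868. Gata1 had 15.4, 31.1 and 34.6 CPM in controls 1 to 3 and 10.9, 20.9 and 24.5 CPM in knockouts 1 to 3, lower in each litter, though the groups overlapped. The 11 erythroid markers summed to 1217, 1996 and 2000.4 CPM in controls 1 to 3 and to 661, 898 and 1737 CPM in knockouts 1 to 3, with 7 of 11 lower, a median log2 fold change of -0.56 and 3 lower at an unadjusted edgeR p under 0.05 (2.24% of all genes). DESeq2 called 1 of them lower, Tfrc (0.249% of all genes), and 3 with litter as a replicate block (0.901% of all genes). The part of erythroid RNA in the values of Gata1 and Gfi1b was not tested. Fli1, an ETS factor of megakaryocytes, had 76.0, 89.9 and 61.0 CPM in controls and 114, 132 and 77.1 CPM in knockouts, higher in each litter and overlapping as well. Runx1 and Nfe2 had log2 fold changes of 0.37 (SE 0.23) and 0.29 (SE 0.55), with edgeR adjusted p of 0.844 and 0.962.

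Among 12 genes of thrombopoietin signalling, the main cytokine pathway of megakaryocytes, 0 passed in edgeR or DESeq2, 1 was higher at an unadjusted edgeR p under 0.05 (4.26% of all genes), and the median log2 fold change was 0.38. Stat3 had 41.5 to 59.9 CPM in controls and 54.6, 87.3 and 161 CPM in knockouts 1 to 3 (edgeR adjusted p = 0.733). Pim1 overlapped between the genotypes, and the feedback inhibitors Socs1 and Socs3 were at 0 to 12.5 CPM with no common order.

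Of the 23 surface receptors and signalling genes, 19 had a log2 fold change above 0 (50.8% of all genes) with a median of 0.77, and 7 lay above all controls in every knockout (6.39% of all genes). Besides Gp1ba, the DESeq2 calls were Plek, F2r and Fcer1g. Plek encodes pleckstrin, a protein kinase C substrate of platelets and leukocytes, and had 62.0, 30.5 and 37.2 CPM in controls 1 to 3 and 116, 226 and 186 CPM in knockouts 1 to 3 (log2 fold change 2.02, SE 0.37; edgeR adjusted p = 0.558, DESeq2 adjusted p = 0.000123). F2r encodes the thrombin receptor PAR1 and had 85.0 to 132 CPM in controls and 208 to 234 CPM in knockouts (DESeq2 adjusted p = 0.0285). Fcer1g, the signalling chain of GPVI and of Fc receptors on myeloid cells, had 5.62 to 18.9 CPM in controls and 31.2, 68.3 and 184 CPM in knockouts 1 to 3 (DESeq2 adjusted p = 0.000777). The receptor genes Gp6, Clec1b and Mpig6b overlapped between the genotypes. Gp6, the collagen receptor GPVI, was at 0.0802 to 2.26 CPM over all libraries. Clec1b had 6.71 to 14.4 CPM in controls and 10.5 to 26.8 CPM in knockouts. Mpig6b, listed under its older symbol AU023871, had 7.56, 3.10 and 8.46 CPM in controls 1 to 3 and 5.66, 9.67 and 0 CPM in knockouts 1 to 3.

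Several of these genes are also expressed by macrophages. Of 12 macrophage markers, 4 lay above all controls in every knockout (6.39% of all genes). In edgeR 0 passed, and 5 were higher at an unadjusted p under 0.05 (4.26% of all genes). C1qb and Csf1r passed in DESeq2 (adjusted p = 0.00214 and 0.00759), against 0.762% of all genes higher. The summed level of the 12 was 313 to 502 CPM in controls and 657, 259 and 1055 CPM in knockouts 1 to 3. None of the 12 was at 0 in any library. Fcer1g was highest in knockout 3, which had the highest macrophage sum. So were Pf4 and Treml1, 2 of the 10 genes, and Stat3 and Myh9 of the related lists. Itgb3 and Rab27b, also 2 of the 10, and Gp1ba and Plek were highest in knockout 2, which had the lowest macrophage sum. The part of macrophage RNA in the levels of these genes was not tested.

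**Figure D4:**
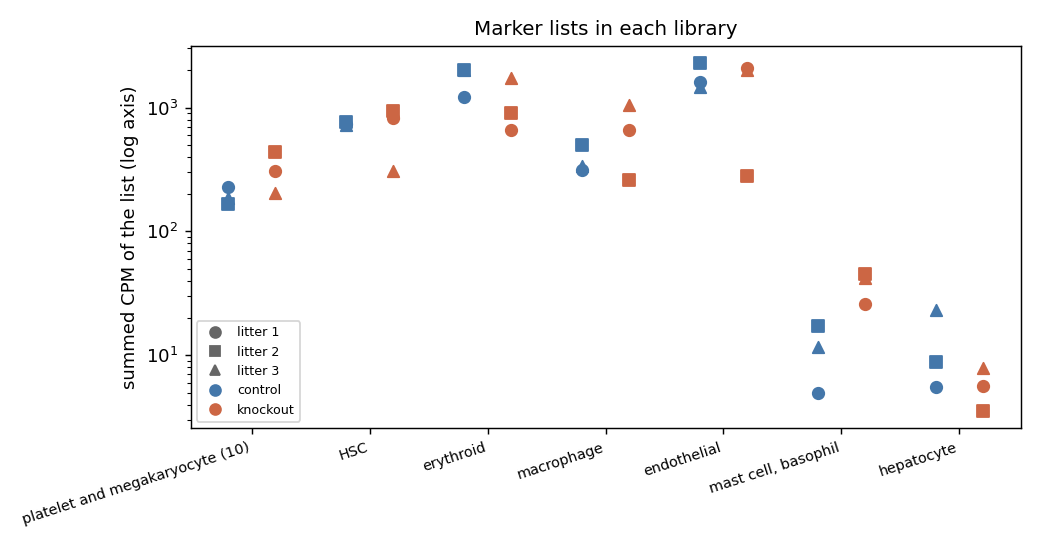
Summed CPM (log axis) of the 10 platelet and megakaryocyte genes and of 6 lists of cell markers in each library, controls in blue and knockouts in orange, with 1 symbol per litter. Knockout 2 had 280 CPM of endothelial markers against at least 1453 CPM elsewhere, and knockout 3 had 309 CPM of HSC markers against at least 722 CPM elsewhere.

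Among 26 other genes of granule cargo and granule release, 0 passed in edgeR or DESeq2, 5 were higher and 1 lower at an unadjusted edgeR p under 0.05 (4.26% and 2.24% of all genes), 18 were above 0 (50.8% of all genes) and the median log2 fold change was 0.55. Thbs1, the alpha granule protein thrombospondin, had 61.4 to 96.5 CPM in controls and 115 to 140 CPM in knockouts, and Tgfb1 had 64.6 to 74.5 CPM in controls and 95.3 to 112 CPM in knockouts (edgeR adjusted p = 0.709 and 0.721). Rab32, needed for dense granules, had 1.38, 9.52 and 3.18 CPM in controls 1 to 3 and 27.0, 14.7 and 23.2 CPM in knockouts 1 to 3 (DESeq2 adjusted p = 0.146, and 0.0338 with litter as a replicate block, the pairing of the labels). Selp, F5 and Mmrn1, which encode P-selectin, coagulation factor V and multimerin, overlapped between the genotypes, with edgeR log2 fold changes of 0.15 (SE 1.04), -0.32 (SE 0.60) and 0.69 (SE 0.37). Among 12 cytoskeletal genes 11 were above 0 (50.8% of all genes), with a median of 0.65, 3 were higher at an unadjusted edgeR p under 0.05 (4.26% of all genes), and 0 passed in edgeR or DESeq2. Myh9, the nonmuscle myosin of megakaryocytes and many other cells, had 158 to 195 CPM in controls and 238, 242 and 450 CPM in knockouts 1 to 3 (edgeR adjusted p = 0.729). Myh9, Mylk, Zyx and Flna, 4 of the 12, were above all controls in every knockout (6.39% of all genes). Tubb1, the beta tubulin particular to the platelet lineage, had 4.07, 2.06 and 1.47 CPM in controls 1 to 3 and 0.579, 6.26 and 9.80 CPM in knockouts 1 to 3, which overlapped.

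**Figure D5:**
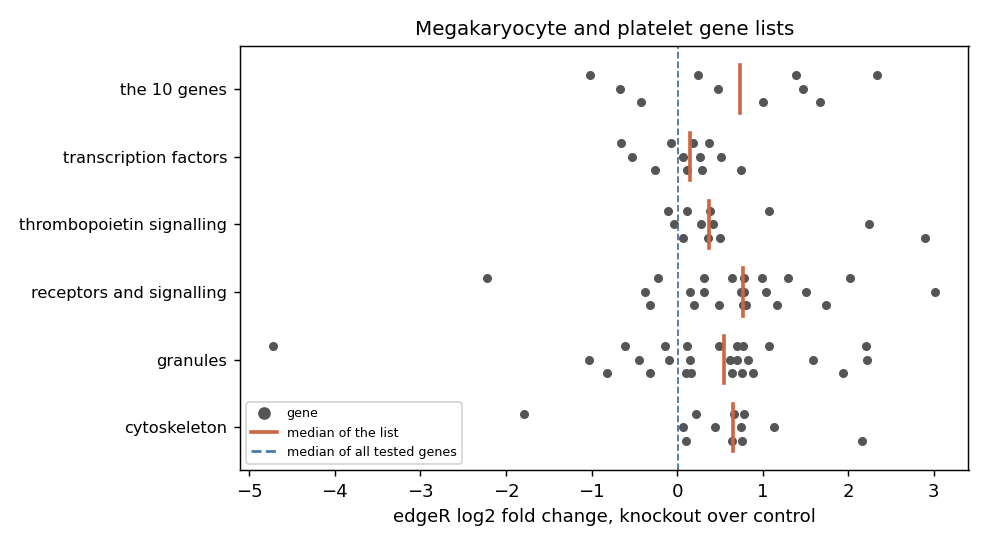
EdgeR log2 fold change (knockout over control, horizontal axis) of each tested gene in the 10 platelet and megakaryocyte genes and in 5 related lists, with the median of each list (orange) and of all tested genes (dashed blue, 0.01). Medians ran from 0.15 for transcription factors to 0.77 for receptors and signalling.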

How the data were processed

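For each of the 6 libraries, the deposited values are raw read counts by gene symbol, whole and not normalized. The submitters' processing notes name CASAVA 1.8.4, TopHat2, Picard 1.126, HTSeq 0.6.0, DESeq 3.0, bedtools 2.17.0 and mm10, without their roles. Annotation and strand setting are not given in the sources used here. The 5 closing tallies of unassigned reads (41.0% to 51.0% of all) were left out. PCR copies could not be removed. Genes were filtered with filterByExpr and scaled by trimmed mean of M values. Genotypes were compared with the quasi-likelihood test of edgeR 4.0.16 (R 4.3.3), with no term for litter, and p was adjusted by Benjamini and Hochberg's method over all 13646 genes, with a threshold of 0.05. The scripts were tested on simulated data. Log2 CPM used a prior count of 2. The SE is the size of the log2 fold change divided by the root of the F statistic. Alternatives were DESeq2 1.42.0, limma-voom (limma 3.58.1), other scalings and filters, litter as a replicate block and each library left out. Litter numbers pair the samples by the labels; deviations from the genotype means of the same litter correlated at -0.02, -0.08 and 0.003. Coordinates and exon union lengths are from GENCODE M21 (GRCm38). The 10 genes and all lists were chosen with earlier results of these data known. Named genes were the 10, Dpy30, 14 further defining genes of the lineage (1 of them is not reported here), and up to 4 of each list with the smallest edgeR p; the 5 genes most like the 10 had the highest Pearson r.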

Additional observations from a re-analysis of the deposited data

How the results depend on the processing

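Over 15 alternatives, DESeq2 with litter as a replicate block being chosen after seeing the data, 8 of the 10 genes kept the direction of their difference wherever they were tested, which was in 14 for Gp1bb. Without 1 library at a time, Gp9 ran from -0.20 (control 2 left out; -0.10 without knockout 2) to 0.90, and Vwf from -1.13 to 0.12 (knockout 3 left out). The count of all genes past the threshold was 0 in edgeR, 1 without a filter on low counts, 1 with at least 10 counts in every sample, 138 in DESeq2 and 277 in DESeq2 with the block. For the 10 genes the counts were 0 in edgeR, 2 in DESeq2 and 1 in DESeq2 with the block, and for the related lists 0, 4 and 5. In edgeR with the replicate block, as with limma-voom, the 3 counts were 0, and at an unadjusted p under 0.05 the block gave 619 genes against 888. Leaving out 1 library gave 0 for each count, and between 593 and 1796 genes then had an unadjusted p below the threshold. The cause was not tested. Scaling by library size only moved the median log2 fold change of all genes by 0.21 and upper-quartile scaling by -0.12, with 63.1% and 44.2% of genes above 0 against 50.8%. The directions of the 10 genes were unchanged under both. Of the 45 pairs of genes, 42 kept the order of their control levels with the longest coding transcript as length, and 33 with no length. With 3 libraries a genotype, the log2 fold changes of Itga2b, Gp1bb, Gp5, Gp9, Vwf and Treml1 were less than 1.5 times their SE, so their direction was not settled. Those of Itgb3, Rab27b, Ppbp and Pf4 were larger against their SE, but their edgeR adjusted p was 0.612 to 0.733. Pf4 and Ppbp passed the threshold in 0 of the 15 alternatives.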
